A study of Homo sapiens with 4 samples.

Results

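NRF2, the transcription factor encoded by *NFE2L2*, was examined together with its inhibitor *KEAP1* and 7 of its antioxidant target genes in Sorafenib-treated cells labelled as control and as sgUSP22. The 9 genes were taken by their symbols from the 28278 gene symbols of the count table. All 9 passed the filter on low counts, which left 15150 genes to be tested. RNA was sequenced from cells labelled HepG2, a human hepatocellular carcinoma line, with 2 libraries per group. The control cells carried Cas9 with a control sgRNA, and the sgUSP22 cells carried Cas9 with an sgRNA against *USP22*, the gene of a ubiquitin-specific protease. Both were made by lentiviral infection as stably selected populations, and both received 10 µM Sorafenib, a kinase inhibitor used against this cancer, for 24 h. No library without Sorafenib is analysed here, so the values compare the genotypes under the drug and do not show what the drug itself did. Neither the labels nor the methods say whether the replicates came from separate cultures, and the p-values measure only the spread between these libraries, which may be technical.

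In unstressed cells, KEAP1 holds NRF2 in a ubiquitin ligase built on CUL3 and marks it for destruction by the proteasome. Oxidants and electrophiles modify KEAP1, NRF2 then accumulates, pairs with a small MAF protein and binds antioxidant response elements near genes for thiol repair, heme breakdown, NADPH supply and detoxification. The regulation of NRF2 is therefore largely at the protein level, which mRNA counts do not measure. In liver cancer cells this pathway is known for its part in limiting lipid peroxidation and ferroptosis, the iron-dependent cell death that Sorafenib can induce.

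The response element is shown first, since it is what ties the targets to NRF2. The letters TGACTCAGC, searched on both strands, contain the shorter and looser core TGACNNNGC and overlap the AP-1 site TGACTCA that other factors bind. Within 5000 bases upstream of the canonical start in the hg38 genome they occurred for 3 of the 9 members, *NQO1*, *HMOX1* and *ME1*. They occurred for 6.55% of the 12983 protein-coding genes tested and for 10 of 45 further NRF2 target genes. The 3 matches are given 5′ to 3′ on the strand of the gene, with the match in capitals, at chr16:69726996-69727025, chr22:35377146-35377175 and chr6:83431169-83431198 of hg38, with *NQO1* and *ME1* on the minus strand and *HMOX1* on the plus strand:
*NQO1*: gcagtcacagTGACTCAGCagaatctgagc
*HMOX1*: gctagattttGCTGAGTCAccagtgcctcc
*ME1*: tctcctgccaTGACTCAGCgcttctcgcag

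The first base of the match lay at -455 from the start of *NQO1*, at -3940 from that of *HMOX1* and at -137 from that of *ME1*. In *HMOX1* the letters read on the other strand. Of the 8 members with a RefSeq promoter window (GRCh38.p14, 250 bases before to 50 after the start), 3 held the core TGACNNNGC, against 15.2% of the 11359 windows of tested genes. These were *ME1* again, *PGD* and *TXNRD1*. The last is shown because it is the member that differed most between the groups, with a match at -99 from the start on the plus strand at chr12:104215670-104215699:
*TXNRD1*: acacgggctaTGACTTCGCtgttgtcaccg

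The windows of *TXNRD1* and *ME1* each held another core match, on the other strand at -8 and 12 from the start. A match is a description of the letters and does not show that a factor was bound there.

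Total counts were between 62030307 and 64728272 per library, and StringTie counts were used without prior scaling. A count of 0 allows up to 3 counts, for counting error only. For *USP22* itself, control libraries had 16450 and 16537 counts and sgUSP22 libraries 20279 and 20368. Its transcript was thus higher, not lower, where the label says knockout (log2 fold change 0.22, edgeR adjusted p = 0.000394). The paper checked its knockout cells by Western blot of the protein, which mRNA counts do not measure. Directions below follow the labels. Of 14 markers of hepatocytes and HepG2 cells, 8 were at 0 in all libraries, *ALB*, *APOA1* and *GPC3* among them, and the highest count of any was 19. The 14 markers summed to between 0.197 and 0.305 CPM (TMM-normalized counts per library) in control and between 0.294 and 0.563 CPM in sgUSP22 libraries. Among other cell types, endothelial and leukocyte markers had at most 17 and 13 counts. Of 5 epithelial markers, *KRT8* and *KRT18* had 38104 to 62855 counts, *CDH1* and *KRT19* were at 0 and *EPCAM* had at most 4. The list summed to between 1756 and 1795 CPM in control and between 1315 and 1373 CPM in sgUSP22 libraries. Of 6 mesenchymal markers, *VIM* and *COL3A1* had 30410 to 66580 counts, while *COL1A2* and *THY1* had at most 7 and 31. This list summed to between 1639 and 1643 CPM in control and between 1444 and 1469 CPM in sgUSP22 libraries, although counts of *COL3A1* (30410 and 31662 against 37872 and 36728) and *COL1A1* (3492 and 3426 against 3738 and 4125) were higher in sgUSP22 libraries. The counts therefore do not show the liver identity that the label names. The part of this in the results below was not tested.

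A gene was called where edgeR's quasi-likelihood test gave an adjusted p-value under 0.05 and the groups differed 1.5-fold or more, and none of the 9 members met both. Of all tested genes, 8.88% were called higher and 7.25% lower in sgUSP22 cells. By the adjusted p-value alone, 6 members were higher, *TXNRD1*, *OSGIN1*, *ME1*, *KEAP1*, *SRXN1* and *NFE2L2*. One, *HMOX1*, was lower, and *NQO1* and *PGD* did not pass. Of all tested genes, 26.8% were higher and 25.8% lower by this rule. The median log2 fold change of the members was 0.15 (range -0.25 to 0.47), against 0.00091 over all tested genes. The 2 groups of libraries did not overlap for any of the 9 members, as was the case for 75.9% of all tested genes.

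**Figure D1:**
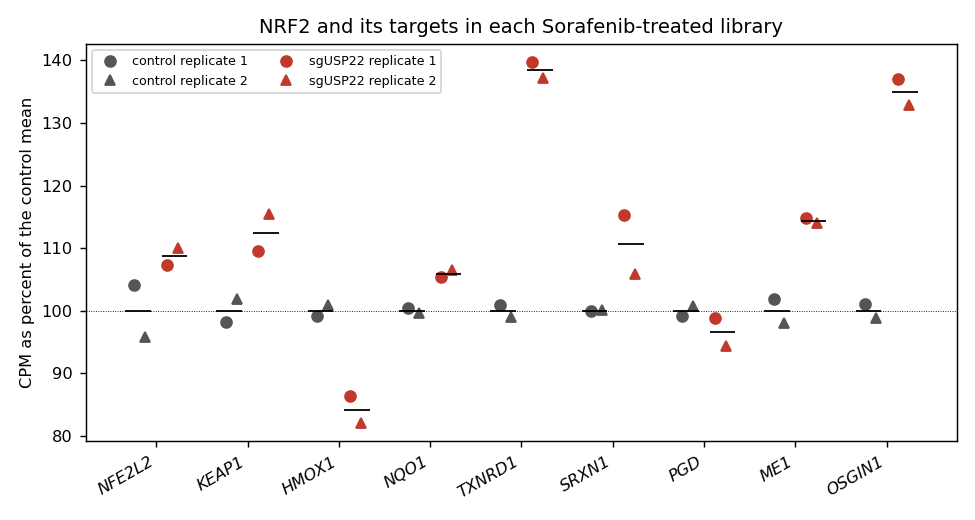
Each point is one library's CPM as a percent of the mean of the control libraries for that gene (linear axis), in grey for control and red for sgUSP22, with bars at the group means. *TXNRD1* stood at 140% and 137% and *OSGIN1* at 137% and 133% in sgUSP22 libraries, whereas the other 7 members stayed between 82.0% and 115%.

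The transcription factor itself differed little. *NFE2L2*, on the minus strand of chromosome 2 from 177218667 to 177392756 (hg38), had 160.2 and 147.2 CPM in control libraries and 164.8 and 169.2 CPM in sgUSP22 libraries. Its sgUSP22 libraries were above both control libraries, but the gap to the higher control library was smaller than the gap between the control libraries. The log2 fold change was 0.12 (standard error, SE, 0.046, 95% interval 0.018 to 0.22, edgeR adjusted p = 0.0496). It did not pass with RLE factors (adjusted p = 0.0543) or with no filter (adjusted p = 0.118), nor without control replicate 2 (0.060, adjusted p = 0.345), sgUSP22 replicate 1 (0.13, adjusted p = 0.0957) or sgUSP22 replicate 2 (0.10, adjusted p = 0.183), and with offsets for GC content and transcript length it was 0.050 (adjusted p = 0.36). In GENCODE, a long noncoding RNA overlaps *NFE2L2* on the same strand by 121575 bases. On the opposite strand *NFE2L2* overlaps *HNRNPA3* by 5293 bases, and whether counting used the strand is not given in the sources used here. *HNRNPA3* had a log2 fold change of -0.12.

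*KEAP1*, which presents NRF2 to the ligase, had 59.7 and 62.0 CPM in control libraries and 66.6 and 70.2 CPM in sgUSP22 libraries. The log2 fold change was 0.17 (SE 0.049, 95% interval 0.059 to 0.28, edgeR adjusted p = 0.0154). It did not pass without control replicate 1 (0.14, adjusted p = 0.0829) or without sgUSP22 replicate 2 (0.13, adjusted p = 0.14), and was 0.32 with the GC and length offsets.

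*TXNRD1* gave the clearest difference among the members. It encodes the cytosolic thioredoxin reductase, a selenoprotein that returns oxidized thioredoxin to its active form with NADPH. In GENCODE, *EID3* overlaps *TXNRD1* on the same strand by 1467 bases, and it had at most 73 counts in any library. The CPM of *TXNRD1* was 661.7 and 648.9 in control libraries and 915.6 and 899.0 in sgUSP22 libraries, with no overlap and little spread within groups. The fold change was 1.38, a log2 fold change of 0.47 (SE 0.030, 95% interval 0.40 to 0.54, edgeR adjusted p = 1.54e-06). It passed the adjusted p-value under all 11 other settings of tool, scaling, filter, block, offsets and omitted library, between 0.40 and 0.52, and never reached 1.5-fold.

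*SRXN1*, sulfiredoxin, repairs overoxidized peroxiredoxins. Another protein-coding gene in GENCODE, ENSG00000270299, overlaps it on the same strand by 6575 bases, and the part of this in its counts was not tested. The CPM of *SRXN1* was 126.5 and 126.7 in control libraries and 145.9 and 134.0 in sgUSP22 libraries, which spread more than the control pair. The log2 fold change was 0.15 (SE 0.046, edgeR adjusted p = 0.0227). It was 0.071 (adjusted p = 0.269) without sgUSP22 replicate 1, the higher of the pair. It also missed the threshold without control replicate 1 (adjusted p = 0.0561), without control replicate 2 (adjusted p = 0.0545) and with no filter (adjusted p = 0.0696).

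*HMOX1* was the member that was lower. It encodes heme oxygenase 1, which splits heme into iron, carbon monoxide and biliverdin and is among the most inducible NRF2 targets. Control libraries had 20.7 and 21.0 CPM and sgUSP22 libraries 18.0 and 17.1 CPM, a log2 fold change of -0.25 (SE 0.082, 95% interval -0.43 to -0.065, edgeR adjusted p = 0.0274). With library size alone it was -0.20 (adjusted p = 0.0686), and with GC and length offsets -0.066 (adjusted p = 0.528). It did not pass with control replicate 1, control replicate 2 or sgUSP22 replicate 2 left out (adjusted p from 0.0688 to 0.108). Its direction was the same in all settings.

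*NQO1*, the quinone reductase often used as a readout of NRF2, had 234.0 and 232.1 CPM in control libraries and 245.6 and 248.1 CPM in sgUSP22 libraries. The groups did not overlap, but the log2 fold change of 0.083 (SE 0.034, 95% interval 0.0073 to 0.16) missed the threshold (edgeR adjusted p = 0.0637). It passed with library size alone (0.14, adjusted p = 0.00667), a setting that moved the median of all genes by 0.052, and was 0.038 with the GC and length offsets (adjusted p = 0.345).

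The NADPH-producing members did not move together. *ME1*, cytosolic malic enzyme, had 102.8 and 99.1 CPM in control libraries and 115.9 and 115.1 CPM in sgUSP22 libraries, a log2 fold change of 0.19 (SE 0.040, edgeR adjusted p = 0.00232). With the GC and length offsets it was 0.035 (adjusted p = 0.474). *PGD*, 6-phosphogluconate dehydrogenase of the pentose phosphate pathway, had 209.3 and 212.7 CPM in control libraries and 208.5 and 199.1 CPM in sgUSP22 libraries. Its log2 fold change was -0.050 (95% interval -0.13 to 0.035, edgeR adjusted p = 0.298), and its sign turned with library size alone (0.0020) and with the offsets (0.018).

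*OSGIN1*, an oxidative stress-induced growth inhibitor, was the least abundant member, with 220 and 220 counts in control libraries and 321 and 306 counts in sgUSP22 libraries. This corresponded to 3.61 and 3.53 CPM and to 4.89 and 4.74 CPM. The log2 fold change of 0.43 (SE 0.15, 95% interval 0.096 to 0.77, edgeR adjusted p = 0.0343) was nearly that of *TXNRD1*, with a wider error. It did not pass with DESeq2 (adjusted p = 0.101) or with any library left out (adjusted p from 0.0733 to 0.15). With the GC and length offsets it was 0.65 (adjusted p = 0.00493), the 1 case in which a member was called.

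**Figure D2:**
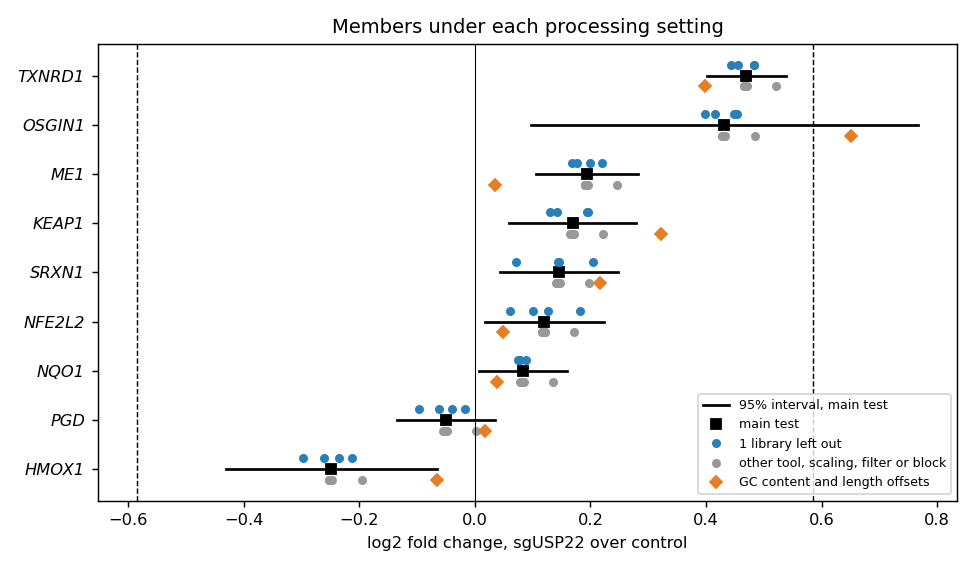
The log2 fold change of each member is plotted for the main test with its 95% interval (black), with 1 library left out (blue), with another tool, scaling, filter or block (grey) and with GC and length offsets (orange), and dashed lines mark 1.5-fold. The interval of *TXNRD1* runs from 0.40 to 0.54 with all settings within or close to it, whereas the orange points lie apart from the others for *OSGIN1*, *KEAP1*, *ME1* and *HMOX1*.

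Per kilobase of the canonical transcript, the members covered a wide range of levels. In control libraries *TXNRD1* had 168.1 to 171.4 CPM per kb, followed by *PGD*, *NQO1*, *NFE2L2*, *SRXN1*, *ME1*, *KEAP1* and *HMOX1* down to *OSGIN1* with 1.83 to 1.88. *PGD* (92.3 to 93.8) and *NQO1* (92.1 to 92.8) overlapped in control libraries, while all other neighbours in this order were separated. In sgUSP22 libraries *NQO1* (97.4 to 98.4) stood above *PGD* (87.8 to 91.9), and the order of the others was the same. *OSGIN1* and *MLYCD* overlap on the same strand by 20135 bases in GENCODE, and *MLYCD* had a log2 fold change of 0.12 (edgeR adjusted p = 0.672), or -0.15 without control replicate 2.

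The profile over the 4 libraries was shared with many other genes. Among 12936 genes with a mean of at least 50 counts, 3186 lay within a root mean square distance of 0.1 log2 units of *NFE2L2*, the closest being *PDK2*, *PBK* and *VAMP7*. For *TXNRD1* this was so for 1580 genes, with *HERC5*, *AMMECR1* and *MACO1* closest.

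The wider pathway was read from 7 lists with 78 genes, of which 74 were tested. The lists were chosen with earlier results of these data known, so their counts and medians are descriptions and not a test. In these lists 13 genes were called higher and 2 lower, against 8.88% and 7.25% of all tested genes. By the adjusted p-value alone 36 were higher and 20 lower, against 26.8% and 25.8% of all tested genes. The median log2 fold change over the tested list genes was 0.15, the same to 2 decimals as for the members. The lists differed in their medians, from -0.10 in the NADPH supply and thioredoxin lists to 0.55 in the list of aldo-keto reductases and detoxification enzymes.

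**Figure D3:**
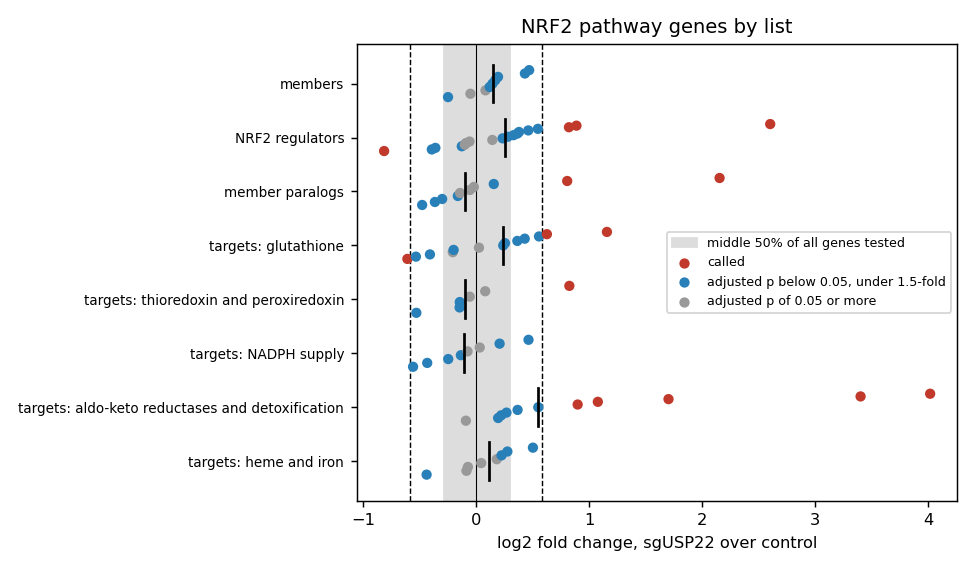
Each point is the log2 fold change of one tested gene, in rows by list, with a black bar at the median of the list, dashed lines at 1.5-fold and the middle 50% of all tested genes (-0.28 to 0.30) in grey. The members lie between -0.25 and 0.47, and the largest increases, at 4.02 and 3.40, are in the aldo-keto reductase row.

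Among 18 regulators of NRF2, 3 were called higher and 1 lower, against 8.88% and 7.25% of all tested genes. The median log2 fold change of the regulators was 0.26. *CUL3*, the scaffold of the KEAP1 ligase, had 38.7 and 35.6 CPM in control libraries and 64.9 and 66.4 CPM in sgUSP22 libraries. It rose by a log2 fold change of 0.82 (SE 0.056, edgeR adjusted p = 2.11e-06), which was 0.53 and below 1.5-fold with the GC and length offsets. *AMER1*, a protein of the Wnt pathway that also binds KEAP1, rose by 0.89 (edgeR adjusted p = 4.08e-06). *BACH2*, a repressor related to NRF2's competitor BACH1, rose from 11 and 8 counts to 47 and 76 counts, a log2 fold change of 2.60 (edgeR adjusted p = 0.00157). *BACH1*, which occupies the same elements and represses *HMOX1*, had 125.5 and 122.9 CPM in control libraries and 96.2 and 97.4 CPM in sgUSP22 libraries. It was lower by the adjusted p-value, with a log2 fold change of -0.36 (edgeR adjusted p = 3.73e-05), and was called lower with the offsets (-0.61).

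The small MAF partners went different ways. *MAFF* fell from 99.8 and 104.5 CPM to 61.3 and 54.9 CPM, a log2 fold change of -0.81 (SE 0.057, edgeR adjusted p = 2.48e-06). *MAFG* had a log2 fold change of 0.33 (edgeR adjusted p = 0.00069) and *MAFK* of -0.13 (edgeR adjusted p = 0.0457), both under 1.5-fold. *MAFK* turned to 0.038 with the offsets. *SQSTM1*, whose protein sequesters KEAP1, had -0.091 (edgeR adjusted p = 0.0603).

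Of 10 paralogs of the members, 2 were called higher and 0 lower, against 8.88% and 7.25% of all tested genes. The median log2 fold change of the paralogs was -0.098. The mitochondrial *TXNRD2* (log2 fold change -0.36, edgeR adjusted p = 0.000752, or -0.17 with the offsets) and *TXNRD3* (-0.48, edgeR adjusted p = 0.00145) were lower, whereas *TXNRD1* was higher, and the 95% interval of each lies apart from that of *TXNRD1*. *NFE2L3*, a related factor, rose from 13.6 and 12.7 CPM to 23.2 and 22.8 CPM, a log2 fold change of 0.81 (edgeR adjusted p = 3.63e-05). *NFE2* rose from 15 and 12 counts to 72 and 56 counts, a log2 fold change of 2.15 (edgeR adjusted p = 0.00206). *NFE2L1*, with 117.1 CPM per kb in control libraries the highest level of these factors, was lower by a log2 fold change of -0.16 (edgeR adjusted p = 0.00212). The constitutive *HMOX2* had -0.020 and *NQO2* -0.055, and neither passed.

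Of 13 tested glutathione and export genes, 2 were called higher and 1 lower, against 8.88% and 7.25% of all tested genes. *GGT1*, which breaks down extracellular glutathione, had 35.7 CPM in both control libraries and 79.5 and 79.8 CPM in sgUSP22 libraries, a log2 fold change of 1.16 (SE 0.047, edgeR adjusted p = 8.62e-08). Near-identical copies of this gene exist, so the count may be shared between them. *ABCC2*, an exporter of conjugates, rose by 0.63 (edgeR adjusted p = 2.26e-06), but by 0.51 with the offsets and 0.58 without sgUSP22 replicate 2, both under 1.5-fold. *GSTA4*, a glutathione transferase for lipid peroxidation products, fell from 5.63 and 5.75 CPM to 3.44 and 4.03 CPM (log2 fold change -0.61, edgeR adjusted p = 0.00704), was -0.56 and under 1.5-fold with library size alone, and did not pass without sgUSP22 replicate 1 (adjusted p = 0.0523). Both subunits of the enzyme that starts glutathione synthesis were higher without reaching 1.5-fold in the main test. *GCLC* had a log2 fold change of 0.43 (edgeR adjusted p = 3.86e-05) and *GCLM* of 0.56 (edgeR adjusted p = 1.05e-05). Over the other settings *GCLM* ranged from 0.31, with the offsets, to 0.61, which is past 1.5-fold. *SLC7A11*, the cystine transporter that feeds glutathione synthesis, had 0.36 (edgeR adjusted p = 0.00029) but -0.014 with the offsets. Others of the list were lower by the adjusted p-value. *GSTM3*, a glutathione transferase, had -0.53 (edgeR adjusted p = 5.22e-06) and was called lower with the offsets (-0.59). *CBR1*, a carbonyl reductase, had -0.41 (edgeR adjusted p = 4.32e-05), or -0.24 with the offsets, and *GSR*, glutathione reductase, had -0.20 (edgeR adjusted p = 0.00146).

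In the thioredoxin list 1 of 6 genes was called, *SESN2*, a stress-induced regulator of mTORC1, with a log2 fold change of 0.83 (edgeR adjusted p = 2.12e-05). Of all tested genes, 8.88% were called higher and 7.25% lower. *TXNIP*, which binds and inhibits thioredoxin, was lower at -0.53 (edgeR adjusted p = 1.52e-06) and was called lower with the offsets (-0.59). None of 8 genes of NADPH supply was called, against the same shares of all tested genes. Of those described here, *PGLS* (-0.56), *TKT* (-0.25) and *TALDO1* (-0.13) of the pentose phosphate pathway were lower by the adjusted p-value, while *IDH1* (0.46) and *RPE* (0.21) were higher. With the offsets *PGLS* was -0.28 and *TKT* -0.12, and *TALDO1* (0.026) and *RPE* (-0.017) turned. None of 8 tested heme and iron genes was called either, again against these shares. By the adjusted p-value 3 were higher and 1 lower, against 26.8% and 25.8% of all tested genes, and 4 did not pass. *FTH1*, the ferritin heavy chain, had a log2 fold change of 0.50 (SE 0.030, edgeR adjusted p = 8.51e-07) and 0.62 with the offsets, which was called. The lower gene was *SLC48A1*, at -0.44 (edgeR adjusted p = 6.34e-05), or -0.32 with the offsets.

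The aldo-keto reductases and detoxification enzymes held the largest differences of the pathway lists. Of 11 tested genes, 5 were called higher and 0 lower, against 8.88% and 7.25% of all tested genes. By the adjusted p-value 10 of 11 were higher, against 26.8% of all tested genes, in a list chosen with earlier results known. *AKR1C1*, a hydroxysteroid and carbonyl reductase on chromosome 10 (4963253 to 4983283, hg38), had 131 and 157 counts in control libraries and 2527 and 2399 counts in sgUSP22 libraries. Its CPM was 2.15 and 2.52 against 38.5 and 37.2, a fold change of 16.2 and a log2 fold change of 4.02 (SE 0.11, 95% interval 3.78 to 4.25, edgeR adjusted p = 5.5e-09). Its neighbour *AKR1C2* rose 10.6-fold, from 2.59 and 2.47 CPM to 25.4 and 28.1 CPM (edgeR adjusted p = 2e-08). *AKR1C3* rose 3.25-fold, from 27.1 and 26.4 CPM to 84.4 and 89.5 CPM (edgeR adjusted p = 1.8e-08). The 3 genes lie side by side and are related in sequence, so reads may be divided between them and they are not independent. The groups were far apart for each of them, and under all 11 other settings the log2 fold change of *AKR1C1* was between 3.84 and 4.14.

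*TRIM16L* rose 2.11-fold, from 70.6 and 70.4 CPM to 148.2 and 149.4 CPM (edgeR adjusted p = 3.88e-08). It shares sequence with *TRIM16*, which had a log2 fold change of 0.55 (edgeR adjusted p = 5.78e-06) and was called higher with the offsets (0.62). *ALDH3A1*, an aldehyde dehydrogenase, rose from 6.49 and 5.27 CPM to 11.1 and 10.8 CPM, a log2 fold change of 0.90 (edgeR adjusted p = 0.000279). Of the rest, *AKR1B1*, *PIR*, *EPHX1* and *PTGR1* were higher by between 0.20 and 0.37 on the log2 scale, with *AKR1B1* at 0.42 and *EPHX1* at 0.38 with the offsets. *NR0B1* was listed at 0 in all libraries, and *AKR1B10* was listed at 0 in 3 of 4. The TGACTCAGC letters were found upstream of 0 of the 10 genes of this list that were among the protein-coding genes searched, against 6.55% of all those searched. The looser core TGACNNNGC was not counted for this list. With so few genes, the count does not show that response elements are absent.

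**Figure D4:**
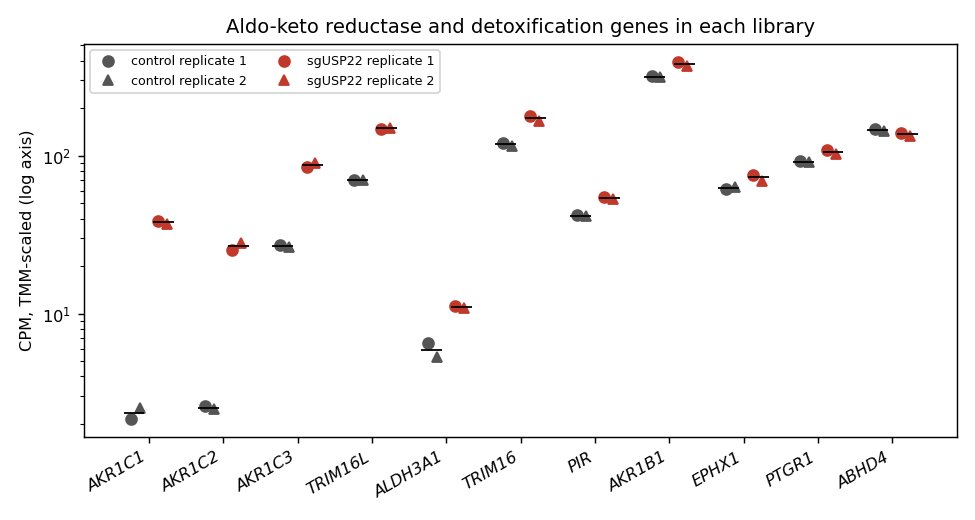
CPM (log axis) of the 11 tested aldo-keto reductase and detoxification genes in each library, in grey for control and red for sgUSP22, with bars at the group means. *AKR1C1* and *AKR1C2* go from 2.15 to 2.59 CPM in control libraries to 25.4 to 38.5 CPM in sgUSP22 libraries, while *ABHD4* at the right is the only gene of the panel with lower sgUSP22 values.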

How the data were processed

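The authors aligned reads to hg38 with HISAT2 2.2.1, sorted them with Samtools and deposited StringTie 2.2.1 gene counts as whole numbers, not scaled to library size. The annotation and strand setting are not given in the sources used here. All 4 columns were matched to samples by name. Genes were tested in R 4.3.3 with edgeR 4.0.16 (TMM, filterByExpr with a minimum count of 10, glmQLFit, glmQLFTest), with Benjamini-Hochberg adjustment over all 15150 tested genes and a fold change threshold of 1.5 as in the study. Standard errors (SE) were taken as |log2 fold change| over the root of the F statistic. DESeq2 1.42.0 was an alternative on the same filtered genes. On simulated counts of 14897 genes, edgeR recovered 93.5% of 200 genes changed by 2-fold or 4-fold, with 11 false calls. The changed genes were drawn from those with a mean of at least 50 counts. The recovery therefore does not cover differences as small as those of the members, which were under 1.5-fold in the main test. Of the symbols, 25763 matched GENCODE release 44, which gave positions, lengths and GC content. The offsets were lowess trends (span 0.3) per library. Genes named from the lists are those called and, for regulators and paralogs, any member of the list. Others were named after their values were seen. These are *GCLC*, *GCLM*, *SLC7A11*, *GSTM3*, *CBR1*, *GSR*, *TXNIP*, *TRIM16*, *FTH1*, *SLC48A1*, the named NADPH supply genes and the remaining detoxification genes. The values of 1 list gene are not reported here. The members and lists were chosen with earlier results of these data known. The 95% intervals come from this fit and include the spread between libraries, whereas the floor of a 0 count covers counting error only, and StringTie derives counts from coverage. The replicate numbers share no stated batch, and same-numbered libraries correlated at 0.042 in their deviations.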

Additional observations from a re-analysis of the deposited data

How the results depend on the processing

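The number of called genes was 1345 higher and 1098 lower. Without the fold change threshold it was 4057 and 3904, and with a test against a fold change of 1.5 it was 578 and 428, by the construction of these rules. For the members the count of 0 became 6 higher and 1 lower without the threshold and 1 higher with the GC and length offsets. For the list genes, 13 higher and 2 lower became 36 and 20 without the threshold. The 2 lower became 1 with library size alone, 1 with the test against 1.5-fold and 6 with the offsets. The list genes called higher also changed with the setting. The regulator *SYVN1*, at 0.55 in the main test, passed 1.5-fold with library size alone (0.60) and with the offsets (0.67). *CUL3* and *ABCC2* were no longer called with the offsets. With the replicate block 1341 genes were called higher and 1100 lower, and the counts of called members and list genes were the same as without it. The replicate numbers tie to nothing in the labels and do not pair the libraries.

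Of 63 comparisons of a member with another setting, 52 had the same sign and the same outcome of the test, 8 no longer passed, 1 newly passed and 2 reversed, both for *PGD* (0.0020 with library size alone and 0.018 with the offsets). Of 36 with a library left out, where the lone library is assumed to vary like the other group, 21 had the same outcome and 15 no longer passed. For list genes these outcomes were the same in 485 of 516 comparisons, with 14 reversed, and in 266 of 296 with a library left out, with 9 reversed. Among those named here, the offsets reversed *SQSTM1* (0.028), *MAFK* (0.038), *HMOX2* (0.15), *NQO2* (0.13), *SLC7A11* (-0.014), *TALDO1* (0.026) and *RPE* (-0.017), and library size alone reversed *HMOX2* (0.032). The cause was not tested. With a library left out, *HMOX2* ranged from -0.062 to 0.013 and *MLYCD*, which overlaps *OSGIN1*, from -0.15 to 0.45.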
